A study of Homo sapiens with 4 samples.

Results

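The enzymes that write and erase DNA methylation and the core of Polycomb repressive complex 2 (PRC2) were followed through the table of expressed genes. The members were picked by their gene symbols and number 10 of the 61806 genes: DNMT1, DNMT3A and DNMT3B, TET1, TET2 and TET3, and EZH1, EZH2, SUZ12 and EED. RNA sequencing covered 2 human bone tumour cell lines that were kept detached from the dish, JJ012 from a chondrosarcoma and 143B from an osteosarcoma. Each line was sequenced once as an untreated control and once after 1 mM melatonin for 72 h, which gives 4 libraries with 1 library per condition. Melatonin is the pineal hormone, here given at a pharmacological dose, and the study asked how it changes bone cancer cells that survive without attachment. No adherent culture and no second culture of any condition is part of these data, so no difference below can be set against the spread between cultures.

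DNA methylation places a methyl group on cytosine, mostly where a C is followed by a G. DNMT1 copies the mark to the new strand after replication, DNMT3A and DNMT3B place it on unmethylated DNA, and the TET dioxygenases oxidise it as the first step of its removal. PRC2 methylates lysine 27 of histone H3, a mark that keeps developmental genes silent. Its catalytic subunit is EZH2 in most dividing cells or EZH1, which is typical of cells that have left the cycle, and SUZ12 and EED hold the complex together.

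The libraries held 15889564 to 19218343 counts in genes, and the 10 members together took 0.0303% to 0.0439% of them, between 5814 and 7083 counts per library. Mitochondrially encoded genes took 1.63% to 6.78% of the counts and stood highest in the JJ012 control. The markers fixed for the tissues of origin were mostly silent: 2 or 3 of 11 chondrocyte markers and 3 to 5 of 10 osteoblast markers reached 1 FPKM (counts scaled to exonic length and library total) in a library. Aggrecan (ACAN) stood at 0.02 FPKM in both JJ012 libraries and collagen II (COL2A1) at 0 there, while the cartilage regulator SOX9 stood at 15.06 FPKM in the JJ012 control and 15.48 in the 143B control. The osteoblast regulator SP7 had 0 counts in the 143B control. Of 10 markers of other cell types, 3 or 4 reached 1 FPKM per library, and the T cell gene CD3E had 497 counts in the JJ012 control, 141 in the JJ012 melatonin library and 0 in both 143B libraries.

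The sequence just before the start site is shown for the 4 members that were higher after melatonin in JJ012 and for EZH2, the counterpart of EZH1 that was not. All 10 members matched the RefSeq promoter table (GRCh38.p14), and where a gene had several start sites, the one nearest to the gene's 5′ end in the deposited positions was taken. Each line gives the 250 bases before the start, 5′ to 3′ on the gene's strand. Capitals mark matches to the E2F motif, searched on both strands as TTTCCCGC, TTTCGCGC, TTTGCCGC or TTTGGCGC, letters that overlap with no other motif searched. E2F factors drive genes of the S phase.
EZH1 (chr17:42745041-42745290, minus strand): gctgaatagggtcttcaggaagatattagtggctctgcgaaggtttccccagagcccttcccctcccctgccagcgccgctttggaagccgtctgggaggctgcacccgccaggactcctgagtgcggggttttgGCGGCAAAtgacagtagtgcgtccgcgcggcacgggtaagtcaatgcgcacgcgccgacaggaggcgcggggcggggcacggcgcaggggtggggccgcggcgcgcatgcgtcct
EZH2 (chr7:148884292-148884541, minus strand): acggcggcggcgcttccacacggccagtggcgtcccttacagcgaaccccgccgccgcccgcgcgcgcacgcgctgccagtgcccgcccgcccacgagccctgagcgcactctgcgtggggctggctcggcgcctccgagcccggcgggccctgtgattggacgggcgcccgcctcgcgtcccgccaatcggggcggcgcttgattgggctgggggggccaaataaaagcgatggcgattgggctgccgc
SUZ12 (chr17:31936757-31937006, plus strand): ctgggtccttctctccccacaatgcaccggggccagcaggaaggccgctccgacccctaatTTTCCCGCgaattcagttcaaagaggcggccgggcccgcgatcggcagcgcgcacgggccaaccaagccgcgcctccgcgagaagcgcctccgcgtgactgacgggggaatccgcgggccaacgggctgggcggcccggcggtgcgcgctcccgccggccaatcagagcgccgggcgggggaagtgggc
DNMT3B (chr20:32779602-32779851, plus strand): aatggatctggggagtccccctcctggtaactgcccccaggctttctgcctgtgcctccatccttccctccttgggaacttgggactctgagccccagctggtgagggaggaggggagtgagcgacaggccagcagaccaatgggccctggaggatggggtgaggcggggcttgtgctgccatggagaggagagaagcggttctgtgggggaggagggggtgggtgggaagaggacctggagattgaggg
DNMT1 (chr19:10194954-10195203, minus strand): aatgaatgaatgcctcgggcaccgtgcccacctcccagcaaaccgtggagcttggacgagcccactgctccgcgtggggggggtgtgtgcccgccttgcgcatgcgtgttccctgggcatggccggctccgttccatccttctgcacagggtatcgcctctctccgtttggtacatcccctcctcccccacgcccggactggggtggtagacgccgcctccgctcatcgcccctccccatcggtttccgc

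EZH1 held TTTGCCGC on the opposite strand, beginning 115 bases before its start, and SUZ12 held TTTCCCGC, beginning 189 bases before. The other 8 members held none of these letters in the window. Of all 34943 RefSeq windows of this length, 2.77% held a match. The number of CpG sites was 38 in the EZH2 window, 34 in SUZ12, 26 in EZH1, 21 in DNMT1 and 3 in DNMT3B, against a median of 11 over all windows. The DNMT3B start in RefSeq lies 17467 bases inside the deposited gene and that of DNMT1 36333 bases inside, so these windows stand for 1 of the starts the deposited models may hold.

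In JJ012, 4 of the 9 members with at least 1 FPKM in either library were higher after melatonin by at least 0.58 on the log2 scale of FPKM + 1, namely DNMT1, DNMT3B, EZH1 and SUZ12, and 0 were lower. Across all 15794 genes tested in JJ012, 19.6% were higher and 18.6% lower by that measure. In 143B, 0 of 9 members were higher and 0 lower, where 6.09% of 14135 tested genes were higher and 6.65% lower. The remaining 5 tested members in JJ012 lay together between -0.09 and -0.05, so that the members' median of -0.05 falls in the lower cluster, beside 0.01 over all tested genes. With this gap between the clusters, the median depends on the scale and was 0.34 with TMM factors over 8 tested members and 0.52 on the TPM scale (FPKM rescaled to 1 sum per library) over 10. The TPM scale raises plain ratios in JJ012 by 0.28 on the log2 scale and the members' changes of FPKM + 1 by 0.18 to 0.55, and 33.0% of genes were then higher and 19.9% lower. In 143B the median was -0.06 beside 0.03. TET1 stayed under 1 FPKM in all 4 libraries and was not tested in any comparison. Folds and ratios of single genes below are ratios of counts scaled to the library total (CPM) with exact 95% intervals, which cover counting error only.

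**Figure D1:**
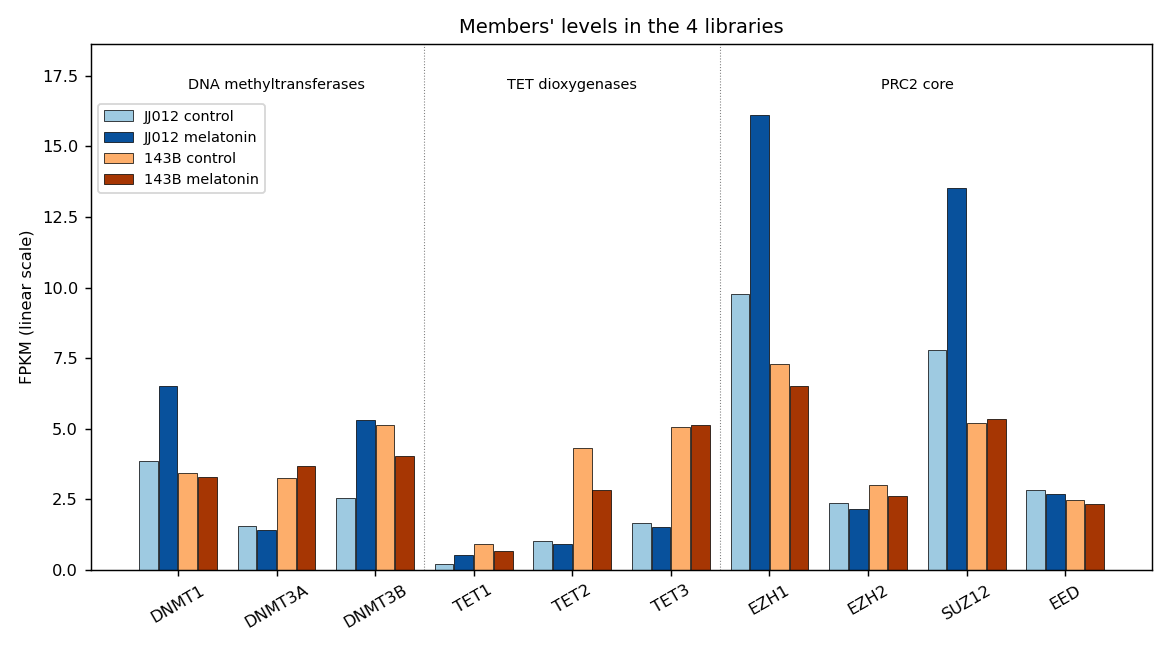
Level of each of the 10 genes in FPKM (vertical axis, linear from 0) in the 4 libraries, 1 bar per library with no error bar because there is 1 library per condition. EZH1 and SUZ12 were the highest 2 genes in every library and TET1 the lowest, and the JJ012 melatonin bar stands above the JJ012 control for DNMT1, DNMT3B, TET1, EZH1 and SUZ12.

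DNMT1, the maintenance methyltransferase (chr19:10133342-10231286 in hg38, minus strand), measured 3.85 FPKM in the JJ012 control, 6.50 in JJ012 with melatonin, 3.44 in the 143B control and 3.31 in 143B with melatonin. The JJ012 melatonin library was the high one of the 4. The JJ012 fold was 1.69 (1.57 to 1.82), from 1138 and 1615 counts. In 143B it was 0.963 (0.875 to 1.06). S1PR2 overlaps DNMT1 on the same strand and reached at most 5.96 FPKM, and reads of the shared part cannot be told apart.

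DNMT3B, a de novo methyltransferase (chr20:32762385-32809359, plus strand), measured 2.55 FPKM in the JJ012 control, 5.30 in JJ012 with melatonin, 5.13 in the 143B control and 4.05 in 143B with melatonin. The JJ012 control was the low library, and the JJ012 melatonin library lay near the 143B control. The fold was 2.08 (1.81 to 2.38) in JJ012, and 0.790 (0.698 to 0.894) in 143B. DNMT3A, the other de novo enzyme (chr2:25227855-25342590, minus strand), measured 1.57 and 1.41 FPKM in JJ012 and 3.27 and 3.67 in 143B, control before melatonin. Its fold was 0.896 (0.771 to 1.04) in JJ012 and 1.12 (1.02 to 1.24) in 143B. Per exonic length, the ratio of DNMT3B to DNMT3A went from 1.62 (1.40 to 1.88) to 3.77 (3.28 to 4.33) in JJ012, and from 1.57 (1.40 to 1.75) to 1.10 (0.984 to 1.23) in 143B.

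None of the 3 TET genes passed the threshold after melatonin in either line. TET2 (chr4:105145875-105279816, plus strand) measured 1.01 and 0.93 FPKM in JJ012 and 4.32 and 2.85 in 143B. It was the member that differed most between libraries. Its fold was 0.660 (0.602 to 0.723) in 143B, a log2 change of -0.47 on the FPKM + 1 scale that misses the threshold and passes it on the CPM and TPM scales and with a pseudocount of 0.1, and 0.922 (0.777 to 1.09) in JJ012. TET3 (chr2:73984910-74108176, plus strand) measured 1.66 and 1.54 FPKM in JJ012 and 5.08 and 5.13 in 143B, with folds of 0.923 (0.795 to 1.07) and 1.01 (0.928 to 1.10). TET3 thus kept apart by line and not by treatment. The ratio of TET2 to TET3 in 143B went from 0.851 (0.782 to 0.927) to 0.556 (0.507 to 0.609), and in JJ012 it was 0.605 in both libraries. TET1 (chr10:68560337-68694487, plus strand) had 40 and 80 counts in JJ012 and 139 and 112 in 143B, that is 0.22, 0.52, 0.91 and 0.68 FPKM. Its folds were 2.38 (1.61 to 3.57) and 0.746 (0.576 to 0.964). Pseudogenes that overlap TET1 on its strand, COX20P1 and RPS3AP37, reached up to 7.72 FPKM, so the TET1 counts are uncertain.

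Within PRC2, the subunits separated in JJ012. EZH1 (chr17:42700275-42745049, minus strand) measured 9.77 FPKM in the JJ012 control, 16.13 in JJ012 with melatonin, 7.30 in the 143B control and 6.53 in 143B with melatonin. SUZ12 (chr17:31937007-32001038, plus strand) measured 7.78, 13.53, 5.21 and 5.34 FPKM in the same order. Both were highest in the JJ012 melatonin library, with folds of 1.65 (1.54 to 1.77) for EZH1 and 1.74 (1.60 to 1.89) for SUZ12. In 143B the EZH1 fold was 0.894 (0.809 to 0.987) and that of SUZ12 was 1.03 (0.912 to 1.15).

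EZH2 (chr7:148807257-148884321, minus strand) measured 2.36 and 2.15 FPKM in JJ012 and 3.01 and 2.62 in 143B. Its folds were 0.910 (0.794 to 1.04) and 0.868 (0.765 to 0.985). EED (chr11:86244753-86278813, plus strand) stood between 2.34 and 2.82 FPKM in all 4 libraries, the narrowest span among the 10 genes, with folds of 0.948 (0.811 to 1.11) and 0.939 (0.791 to 1.12). The catalytic pair therefore shifted in JJ012 and kept its ratio in 143B. The ratio of EZH1 to EZH2 per exonic length went from 4.14 (3.73 to 4.60) to 7.50 (6.71 to 8.41) in JJ012, a change of 1.81-fold (1.56 to 2.11). In 143B it went from 2.42 to 2.49, a change of 1.03-fold (0.879 to 1.21). SUZ12 against EED went from 2.76 to 5.06 in JJ012, a change of 1.83-fold (1.54 to 2.18), and from 2.09 to 2.29 in 143B. These pairs were chosen with the levels known and describe the libraries.

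**Figure D2:**
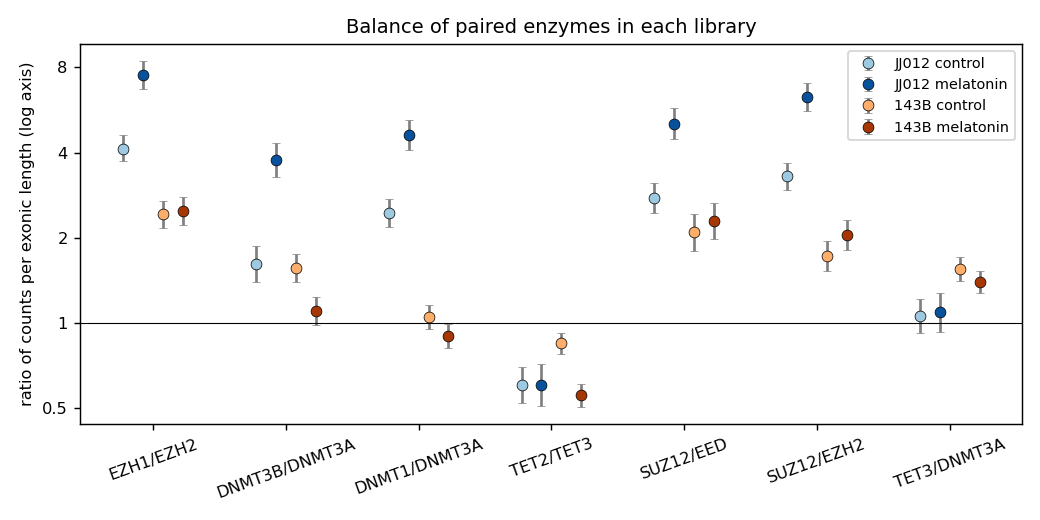
Ratio of counts per exonic length within pairs of members (vertical axis, log scale) in the 4 libraries; points are single libraries and bars the exact 95% interval of the counting error. The JJ012 melatonin point lies above the other 3 libraries for EZH1/EZH2, DNMT3B/DNMT3A, DNMT1/DNMT3A, SUZ12/EED and SUZ12/EZH2, and the intervals of TET2/TET3 in JJ012 overlap.

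Levels between genes depend on the length used. By FPKM, EZH1 and SUZ12 led in every library, and DNMT1 came next in both JJ012 libraries but sixth in both 143B libraries. Of the 9 neighbours in this order, 3 pairs in the JJ012 control, 1 in JJ012 with melatonin and 4 in each 143B library did not differ beyond counting error, among them TET3 and DNMT3A in both JJ012 libraries and SUZ12 and DNMT3B in the 143B control. The exonic length of EZH2 is 10774 bases over all its transcripts and 2639 over the principal transcript. With the principal transcript, the EZH1 to EZH2 ratio was 1.53 and 2.78 in JJ012 and 0.897 and 0.923 in 143B, so EZH2 led in 143B by that length. By it DNMT1 came directly after EZH1 and SUZ12 in JJ012, and directly after EZH2 and EZH1 in 143B. SUZ12 stood below DNMT1 in both 143B libraries. The lead of SUZ12 in 143B and the lower place of DNMT1 there thus hold for the exonic length only. The CPM ratios of a gene do not depend on this choice.

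Length moved with the response in JJ012 itself. Across 11534 tested protein-coding genes there, Spearman's rho between exonic length and log2 fold change was 0.40, as a description over genes that share 2 libraries. The median change was -0.49 in the shortest of 10 length bins of these genes (median length 1553 bases) and 0.36 in the longest (14520.5 bases). In 143B the rho was -0.13. By exonic length over all transcripts, all 10 members are long, from 6551 to 16474 bases. Among the 3786 protein-coding genes in that range 27.8% were higher in JJ012 and 7.29% lower. The members' principal transcripts run from 2223 bases for EED to 11388 for TET3, and no trend was taken on that length. Less the running median over genes of like length, the JJ012 changes were 0.67 for DNMT3B, 0.60 for SUZ12, 0.51 for EZH1 and 0.29 for DNMT1, so that 2 members stayed past the threshold. On the same scale EZH2 stood at -0.43, DNMT3A at -0.40, TET2 and TET3 at -0.39, EED at -0.18 and TET1 at 0.02. With this trend on exonic length taken out, the distance between EZH1 and EZH2 was as large, at 2.05-fold. By principal transcript EZH2 is the shorter gene, at 2639 bases against 4623 for EZH1. How a trend on that length would move their distance was not tested.

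**Figure D3:**
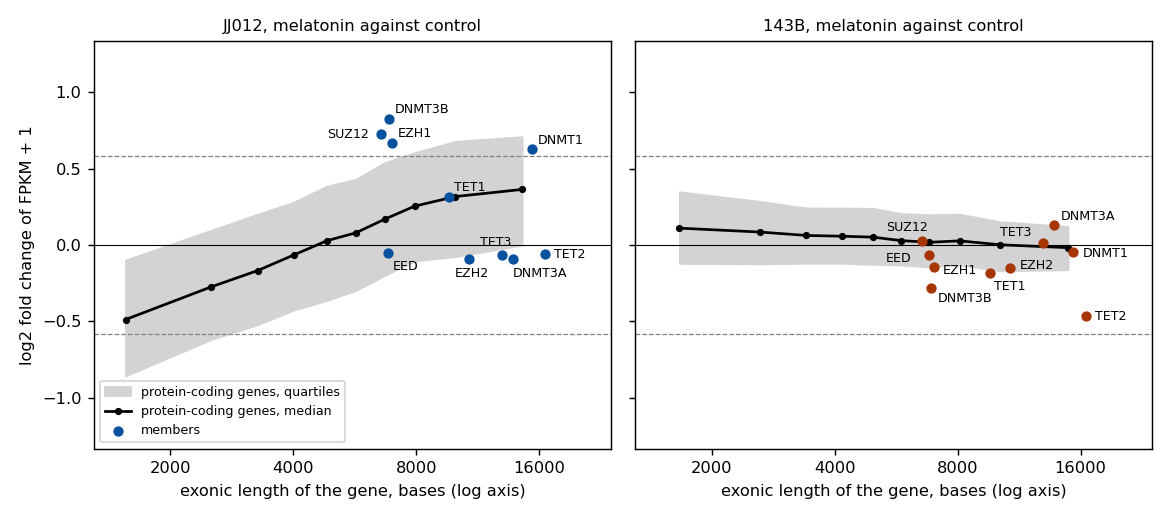
Log2 fold change of FPKM + 1, melatonin against control, by exonic length (horizontal log axis, bases) in JJ012 and in 143B; the black line and grey band are the median and quartiles of tested protein-coding genes in 10 bins of length, dots the 10 members (TET1 untested), dashed lines the threshold of 0.58. In JJ012 DNMT3B, SUZ12, EZH1 and DNMT1 lie above the threshold while the median line rises from -0.49 to 0.36, and in 143B no member reaches the threshold.

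The answers of the lines were compared member by member as the difference of their log2 CPM ratios, JJ012 less 143B. For 7 of 10 members the 95% counting interval of this difference left out 0. It was 1.67 (1.02 to 2.33) for TET1, 1.39 (1.13 to 1.66) for DNMT3B, 0.89 (0.71 to 1.06) for EZH1, 0.81 (0.64 to 0.99) for DNMT1 and 0.76 (0.56 to 0.96) for SUZ12. Smaller differences were 0.48 (0.21 to 0.76) for TET2 and -0.32 (-0.58 to -0.07) for DNMT3A. For EED it was 0.01 (-0.31 to 0.34), for EZH2 0.07 (-0.20 to 0.33) and for TET3 -0.13 (-0.37 to 0.11). Less the length trend the interval for TET2 took in 0 (0.13, -0.14 to 0.40) and that for TET3 did not (-0.44, -0.69 to -0.20).

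A response shared by the lines was tested with edgeR's quasi-likelihood test, with the line as a block, which leaves 1 residual degree of freedom. That residual is the difference between the lines' responses, so the test does not address a response in 1 line alone. Of 18107 genes, 0.0663% were higher and 0.387% lower past an adjusted p of 0.05 by this test. Of 9 tested members 0 passed, and 0 had an unadjusted p under 0.05. Their log2 changes over both lines lay between -0.39 for TET2 and 0.40 for SUZ12.

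**Figure D4:**
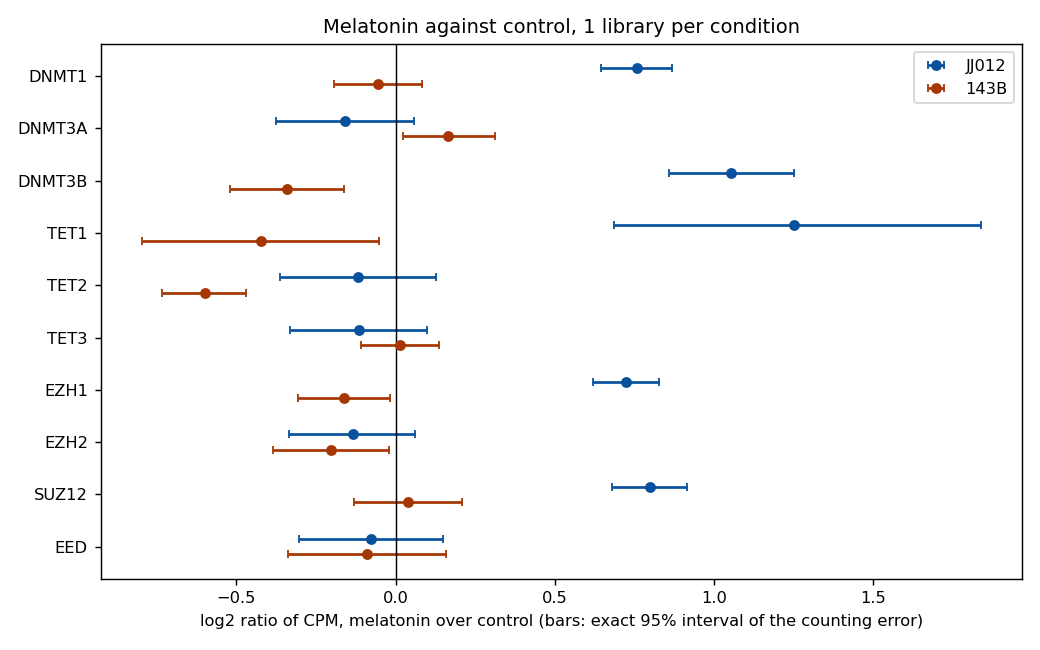
Log2 ratio of CPM, melatonin over control (horizontal axis), for each member in JJ012 and in 143B; points are 1 pair of libraries and bars the exact 95% interval of the counting error. DNMT1, DNMT3B, TET1, EZH1 and SUZ12 lie above 0 in JJ012, whereas in 143B the intervals of TET2, DNMT3B, TET1, EZH1 and EZH2 lie wholly below 0.

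The controls were compared to ask how the lines differ before treatment, and these 2 libraries also enter the comparisons above. In the JJ012 control 0 of 9 tested members were higher than in the 143B control, and 4 were lower, namely DNMT3A, DNMT3B, TET2 and TET3. Over all 16929 genes tested, 41.3% were higher in JJ012 and 27.4% lower, and the median gene was 0.29 higher on the log2 scale, beside -0.26 for the members. Centred on that gene, 32.6% were higher and 34.5% lower, and the same 4 members were lower. Length ran the other way here than in the JJ012 response, with a Spearman's rho of -0.30 over 12329 protein-coding genes. Among those in the members' length range, 25.8% were higher in JJ012 and 32.4% lower, with a median of -0.10. Less the length trend, 3 members were lower, namely DNMT3B, TET2 and TET3. TET2 was 4.29-fold lower in JJ012 (3.78 to 4.87), TET3 3.05-fold lower (2.72 to 3.43), DNMT3A 2.08-fold lower (1.84 to 2.36) and DNMT3B 2.01-fold lower (1.75 to 2.31). TET1 was 4.20-fold lower (2.94 to 6.13) at 40 against 139 counts. By these ratios all 3 TET genes and both de novo methyltransferases were therefore lower in the JJ012 control library than in the 143B control library. SUZ12 was 1.49-fold higher in JJ012 (1.34 to 1.66) and EZH1 1.34-fold higher (1.22 to 1.46). Relative to the median gene these became 0.29 and 0.13 on the log2 scale, and the small excess of DNMT1 and EED in JJ012 turned to -0.12 and -0.10. EZH2 stood at -0.64 on that scale.

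TET2 had the widest span over the 4 libraries. Of 9674 genes with at least 5 FPKM in a library, those whose centred log2 profile lay nearest to TET2 were WHAMMP3, KDM2A, ANKZF1, RBM39 and TBL1XR1, with root mean square differences of 0.035, 0.044, 0.050, 0.063 and 0.067 over 4 libraries. KDM2A, a histone demethylase that binds unmethylated CpG, measured 10.06 and 10.54 FPKM in JJ012 and 29.37 and 21.43 in 143B.

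Partners of these enzymes were read from lists of known components. Beside them, 19.6% of all tested genes were higher and 18.6% lower in JJ012, and 6.09% and 6.65% in 143B. In the members' length range 27.8% of protein-coding genes were higher in JJ012. In JJ012 with melatonin, 3 of 10 tested PRC2 cofactors were higher and 0 lower, with a median of 0.27. Less the length trend 1 was higher, JARID2, and 1 lower, PHF19, and on the TPM scale 5 were higher. JARID2, which recruits PRC2 to chromatin, went from 5.83 to 12.23 FPKM, and in 143B from 18.22 to 15.14. In 143B 0 of 10 were called, with a median of -0.17, and less the length trend 1 was lower, again PHF19. Its FPKM went from 7.34 to 4.66 in JJ012 and from 4.37 to 2.60 in 143B. Among PRC1, the sister complex that ubiquitinates histone H2A, 7 of 23 were higher in JJ012 and 1 lower (median 0.30), and 0 of 23 were called in 143B (median -0.12). Less the length trend, 6 PRC1 subunits were higher in JJ012 and 2 lower, with a median of 0.22. RYBP of the variant complexes went from 7.26 to 17.68 FPKM in JJ012, and SCML2 from 3.90 to 10.16. The catalytic subunits RING1 and RNF2 moved less than RYBP and SCML2, which were named for their large rises, and were not called. RING1 went from 64.58 to 49.68 FPKM and RNF2 from 11.39 to 14.21 in JJ012, and BMI1, their partner, stood at 15.39 and 16.03. In 143B, RING1 measured 19.58 and 22.69 FPKM, RNF2 19.91 and 15.21 and BMI1 19.52 and 14.66.

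The enzymes that oppose Polycomb gave the highest median of the lists in JJ012. Of 9 tested erasers and opponents, 7 were higher and 0 lower, with a median of 0.87. Less the length trend the median was 0.55 and 2 of the 7, KMT2A and KMT2B, stayed past the threshold. In 143B 0 of 9 were called, with a median of -0.09. KMT2A, which methylates lysine 4 of histone H3, measured 2.22 FPKM in the JJ012 control and 6.00 with melatonin, and its paralogue KMT2B 5.20 and 11.36. ASXL2, a partner of the H2A deubiquitinase BAP1, went from 2.97 to 6.24. The H3 lysine 27 demethylases differed in level: KDM6B went from 12.59 to 19.37 FPKM and passed the threshold, and KDM6A measured 0.91 and 1.46. In 143B KDM6B measured 26.84 and 31.36 FPKM and KDM6A 1.15 and 0.83.

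For DNA methylation partners and readers, 4 of 15 tested genes were higher in JJ012 and 1 lower, with a median of 0.30 (0.11 less the length trend), and 0 of 18 were called in 143B, median 0.04. SETD2, which writes the H3 lysine 36 mark read by DNMT3B, went from 4.29 to 11.72 FPKM in JJ012. The methyl-CpG readers ZBTB33 and ZBTB38 went from 9.63 to 19.38 and from 8.09 to 12.63, and MBD3 went down from 8.10 to 4.36. The partner that brings DNMT1 to replicating DNA did not move with DNMT1. UHRF1 measured 0.69 FPKM in the JJ012 control and 0.34 with melatonin, from 68 and 28 counts, and 3.94 and 2.50 in 143B. Its paralogue UHRF2 measured 6.75 and 9.54 FPKM in JJ012 and 20.11 and 18.17 in 143B. The remodeller HELLS stayed at 0.31 and 0.24 FPKM in JJ012 and 1.57 and 1.60 in 143B. TDG, the glycosylase that removes TET products, measured 4.57 and 5.08 FPKM in JJ012 and 6.66 and 7.70 in 143B.

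The methionine cycle supplies the methyl donor for both marks. In JJ012 1 of 7 tested genes was higher and 0 lower (median 0.29), the AHCY-like gene AHCYL2, from 4.92 to 8.51 FPKM, which lost its call less the length trend, and 0 of 7 were called in 143B (median 0.02). MAT2A, which makes the donor, measured 25.02 and 29.78 FPKM in JJ012 and 27.28 and 27.27 in 143B. MTAP, which salvages methionine, had 22 and 60 counts in JJ012 and 0 in both 143B libraries. Its neighbours on chromosome 9, the Polycomb targets CDKN2A and CDKN2B, had 0 counts in all 4 libraries.

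DNMT1, UHRF1 and EZH2 are known to follow the cell cycle, and a list of proliferation genes was therefore read beside them. In JJ012 0 of 18 tested genes were higher and 4 lower, with a median of -0.18 that became 0.07 on the TPM scale. In 143B 3 were higher and 7 lower, with a median of -0.35. The mitotic genes CCNB1 and AURKB and the ribonucleotide reductase subunit RRM2 were lower in both lines. CCNB1 measured 18.35 and 8.43 FPKM in JJ012 and 9.80 and 5.08 in 143B. MKI67 measured 1.73 and 1.82 FPKM in JJ012 and 6.40 and 2.81 in 143B, where TOP2A went from 12.18 to 4.76 and CCNA2 from 6.80 to 2.93. The S-phase genes PCNA, CCNE1 and MCM6 were higher in 143B, PCNA from 7.09 to 11.50 FPKM, a call that 0 of these 3 kept less the length trend. In JJ012 PCNA measured 12.05 and 11.61. Whether the share of cycling cells has a part in the members' values was not tested, and fewer cells that use a gene and less RNA per cell cannot be told apart in these bulk samples.

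**Figure D5:**
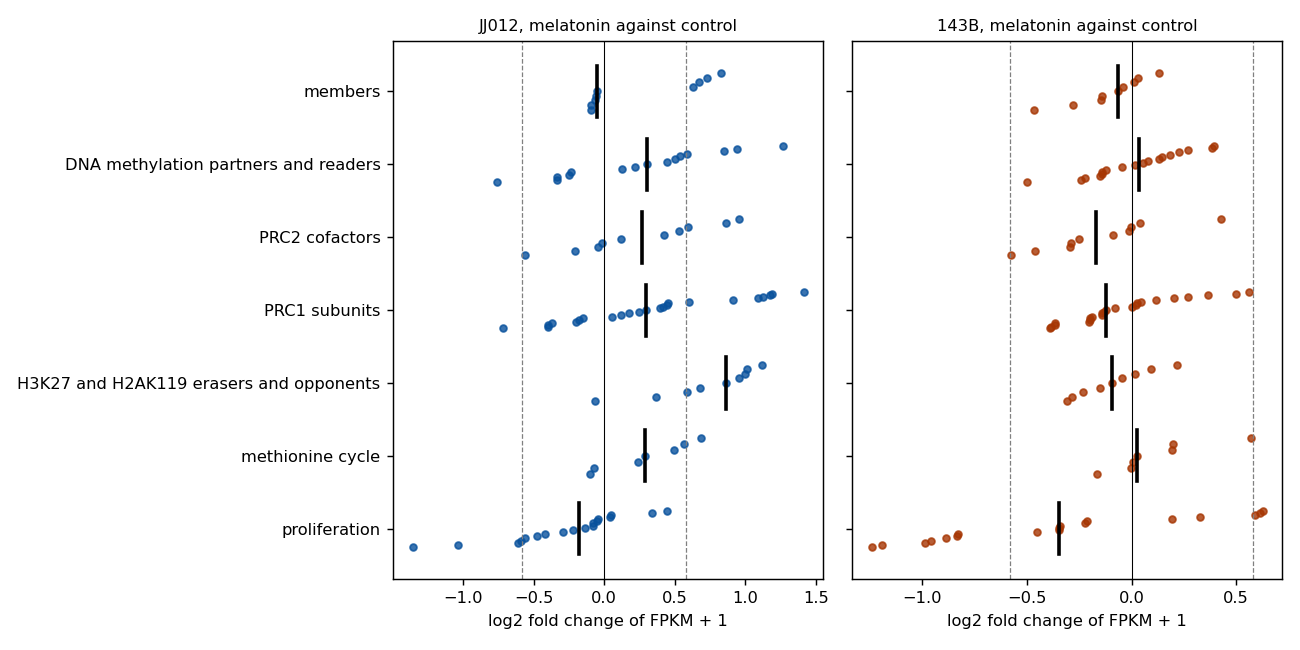
Log2 fold change of FPKM + 1, melatonin against control, for the tested genes of 7 lists in JJ012 and in 143B; each dot is 1 gene, black ticks are list medians and dashed lines the threshold of 0.58. Erasers and opponents of Polycomb have the rightmost median in JJ012 (0.87) and the members fall into 2 clumps there, whereas in 143B dots past the threshold belong to the proliferation list.

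Germline and developmental genes known to be kept silent by these marks were mostly under 1 FPKM in both lines, and imprinted genes were read beside them. Of 16 germline genes that DNA methylation holds silent in somatic cells, 5 were tested in JJ012 (0 higher, 2 lower, median -0.46) and 1 in 143B (not called). PRAME measured 31.25 and 16.31 FPKM in JJ012 and 63.35 and 48.51 in 143B. Of 22 developmental genes silenced by Polycomb, 2 were tested in JJ012 with 0 called, and 7 in 143B with 0 higher and 2 lower (median -0.32). CDKN1C, a cell cycle inhibitor, went from 6.07 to 3.64 FPKM in 143B, and the neural factor LHX2 from 3.76 to 1.77. Of 12 imprinted genes, 4 were tested in JJ012 (0 higher, 3 lower, median -1.06) and 6 in 143B (1 higher, 1 lower, median 0.07). GNAS was lower in both lines, with 49.03 and 22.75 FPKM in JJ012 and 169.69 and 104.69 in 143B. SNRPN went from 12.61 to 5.63 FPKM in JJ012, and PEG10 from 5.21 to 11.07 in 143B with 0 counts in JJ012.

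Between the controls, most lists had a median below 0, that is lower in JJ012, like the de novo and TET genes. Over all tested genes 27.4% were lower and 41.3% higher, and in the members' length range 32.4% and 25.8% of protein-coding genes. The shares lower of PRC2 cofactors, PRC1 subunits and proliferation genes lay near these. Lower in JJ012 were 10 of 18 DNA methylation partners (3 higher, median -0.74), 3 of 10 PRC2 cofactors (2 higher, median -0.47), 8 of 23 PRC1 subunits (3 higher, median -0.43), 7 of 9 erasers and opponents (1 higher, median -1.03), 3 of 7 methionine cycle genes (0 higher, median -0.12) and 5 of 18 proliferation genes (3 higher, median -0.35). Centred on the median gene, 14 PRC1 subunits, 6 PRC2 cofactors and 10 proliferation genes were lower, beside 34.5% of all tested genes. Less the length trend, 11 PRC1 subunits, 4 PRC2 cofactors and 11 proliferation genes were lower, beside 32.7%. KMT2A measured 2.22 FPKM in JJ012 and 21.07 in 143B, RYBP 7.26 and 35.26, and JARID2 5.83 and 18.22. In the other direction, RING1 measured 64.58 in JJ012 and 19.58 in 143B, L3MBTL2 6.00 and 0.62, and RBBP7, a histone chaperone of PRC2, 15.96 and 6.45. The lists of genes known to be kept silent by DNA methylation or Polycomb, and of imprinted genes, also differed between the controls. The marks themselves were not measured. Of 5 tested germline genes 4 were higher in JJ012 and 1 lower (median 1.19), led by MAGEA1 with 1413 counts in JJ012 and 0 in 143B. Of 8 tested developmental genes 1 was higher and 6 lower (median -1.92), among them GATA6 at 0.53 FPKM in JJ012 and 5.73 in 143B, and FOXA2 with 0 counts in JJ012 and 276 in 143B. Of 7 tested imprinted genes 2 were higher and 5 lower (median -1.73), with IGF2 at 0.92 FPKM in JJ012 and 36.02 in 143B.

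Markers of the tissues of origin moved as well. Of 3 tested chondrocyte markers 0 were higher and 2 lower in JJ012 with melatonin, among them SOX9 from 15.06 to 6.16 FPKM, and of 5 tested osteoblast markers 0 were higher and 1 lower, COL1A1 from 10.92 to 0.77. Of 4 tested markers of other cell types 0 were higher and 2 lower. In 143B 0 genes of these 3 marker lists were called, out of 2, 3 and 4 tested. Summed over a list, the level in JJ012 went from 21.25 to 9.23 FPKM for chondrocyte markers, from 98.33 to 71.58 for osteoblast markers and from 20.96 to 12.31 for other cell types, and their part in the members' values was not tested. Between the controls, 1 of 3 chondrocyte, 3 of 6 osteoblast and 2 of 5 other markers were higher in JJ012, and 0, 0 and 2 were lower.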

How the data were processed

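RNA of 4 libraries was sequenced as poly(A) RNA in paired-end reads. One table deposited by the authors gives raw counts for every gene, as whole numbers. The FPKM deposited beside them equal the counts scaled to exonic length and library total, to within rounding at 2 decimals. The submitters' processing notes name cutadapt 1.9.1, HISAT2 2.2.1, HTSeq 0.6.1 and DESeq2 with the build hg38. The annotation release, the strand setting and the counted unit (read or pair) are not given in the sources used here. SUZ12 and EZH2 have pseudogene copies, between which counting may have split reads. Columns were matched to samples by cell line, and the suffix T was read as melatonin. Columns of per-sample values left unused number 0.

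Log2 fold changes are those of FPKM + 1. A gene was tested where the higher of the 2 libraries reached 1 FPKM, and was called past a threshold of 0.58. With 1 library per condition no test within a line exists. Melatonin over both lines was tested with edgeR's quasi-likelihood test (TMM factors, line as a block, Benjamini-Hochberg adjustment), a fit chosen after seeing the data. Ratios of CPM carry exact (Clopper-Pearson) 95% intervals, ratios per exonic length likewise, and differences of ratios intervals from the Poisson error of 4 counts. These intervals cover counting error only. The floor of 3 counts lies between 0.156 and 0.189 CPM. The length trend is a running median over 501 genes, ordered by exonic length. Gene types and principal transcripts came from GENCODE release 29 and TMM factors from edgeR 4.0.16 in R 4.3.3. Python 3.11.15, numpy 2.4.6, pandas 2.3.3 and scipy 1.17.1 did the rest, and the scripts were tested on simulated data.

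The members and all lists were chosen with earlier results of these data known. Beside the 10 members, the text names from each list up to 3 genes with the largest rise and up to 3 with the largest fall past the threshold at 5 FPKM or more, those past it alike in both lines, and 13 fixed genes. One gene that this rule names is not reported here. The genes on chromosome 9, LHX2 and the markers ACAN, COL2A1 and SP7 were picked after their values were seen. Alternatives were another pseudocount, filter and threshold, CPM, TPM, TMM factors, centring on the median gene and removal of the length trend.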

Additional observations from a re-analysis of the deposited data

Results flagged for a closer look

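In 3 members the lines moved in opposite directions, each beyond its own counting error. The difference of the log2 CPM ratios, JJ012 less 143B, was 1.39 for DNMT3B (2.08-fold in JJ012 and 0.790-fold in 143B), 1.67 for TET1 (2.38-fold and 0.746-fold, from 40 to 139 counts per library) and 0.89 for EZH1 (1.65-fold and 0.894-fold). With 1 library per condition, the difference between the lines was not tested against the spread between cultures.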

How the results depend on the processing

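Of 4 members called higher in JJ012, 2 (DNMT3B and SUZ12) were called after removal of the length trend, 1 (DNMT3B) after removal of the trend of protein-coding genes, an alternative chosen after seeing the data, and 0 at a threshold of 1. In 143B, 1 member (TET2, lower) was called with a pseudocount of 0.1, on the TPM scale and on the CPM scale, against 0 otherwise. Of 4 members lower in JJ012 between the controls, 2 (DNMT3B and TET3) were called with a filter of 5 FPKM, where 4 members were tested, and 2 (TET2 and TET3) at a threshold of 1. The cause of the changes by scale was not tested. The members' other counts stayed within 1.5 times the values given. Of the differences between the lines, 7 lay beyond counting error as given, centred or with TMM factors. On the TPM scale 8 did, without DNMT3A and with EZH2 and EED, and less the length trend 7 did, without TET2 and with TET3. Counts of the lists moved more. On the TPM scale in JJ012, 8 DNA methylation partners, 12 PRC1 subunits, 5 PRC2 cofactors, 4 methionine cycle genes, 2 proliferation genes and 2 imprinted genes were higher, and in 143B 5 developmental genes were lower. Between the controls on that scale, 14 PRC1 subunits, 7 PRC2 cofactors, 14 proliferation genes and 11 developmental genes were lower, and less the length trend 11 proliferation genes were. Of 210 recomputed member values, 140 moved by less than their counting interval, 70 by more, and 0 called values changed sign. The 5 members near 0 in JJ012 stand between 0.10 and 0.18 on the TPM scale. TMM factors lower plain ratios between the controls by 0.35 on the log2 scale and the members' differences of FPKM + 1 by 0.11 to 0.31. By principal transcript length, chosen after seeing the data, EZH2 leads EZH1 in 143B, and DNMT1 stands above SUZ12 there. Depth limits TET1, at 40 to 139 counts, and UHRF1 in JJ012.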
